A study of Danio rerio with 24 samples.

Results

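The proteins that load, dock and fuse synaptic vesicles are described here through 75 zebrafish genes of the 25067 in the deposited expression table. They were chosen by a rule on names, with earlier results of these data known: the synaptotagmins (syt followed by a digit, 24 genes), complexins (cplx, 8), syntaxins (stx followed by a digit, 21), syntaxin-binding proteins (stxbp, 9), vesicle-associated membrane proteins (vamp followed by a digit, 6), snap25 (2) and the SV2 vesicle glycoproteins (sv2, 5). By name and the role known for genes of that name, 35 were placed in a neuronal class, which holds the forms found mainly in neurons and endocrine cells. A further 24 were placed in a general class, which holds forms that serve Golgi, endosomal and surface traffic in most cells. It also holds forms known from narrower settings, such as the stx11 genes and stxbp2 (granule release in blood cells) and stx19 (epithelia). The other 16 were left unassigned.

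Each of 24 libraries holds the poly(A) RNA of 1 sorted population, in 12 groups of 2. Embryonic cells came from tails of double transgenic fish, Tg(kdrl:mCherry/CD41:GFP): a kdrl promoter marks endothelium red, and a CD41 promoter marks thrombocytes and hematopoietic stem and progenitor cells (HSPCs) green. All tail groups carry both transgenes. At 36 hours post fertilization (hpf) and on days 3 and 4 (3 and 4 dpf), 3 sorts were taken: HSPCs, endothelial cells (EC), and cells negative for both colours (DN, the NC sort of the study). Only DN cells of 52 hpf are described, and other sorts of that stage were not used here. Kidney marrow of CD41:GFP fish aged 3 months (3 mpf) gave HSPCs and DN cells. The tail holds the caudal hematopoietic tissue, an embryonic niche of HSPCs. Sample titles do not name this tissue at 36 hpf but do at later tail stages, so stage and dissection cannot be told apart across that step. DN cells are a mixture: whatever in the sample carried neither colour.

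Membrane fusion in eukaryotes is driven by SNARE proteins, in which a vesicle SNARE (a VAMP) zippers with target-membrane SNAREs (a syntaxin and a SNAP-25 type protein) and pulls the membranes together. Munc18 proteins, encoded by stxbp genes, hold the syntaxin and guide assembly, complexins bind the assembled bundle, and synaptotagmins sense the calcium that triggers release. Neurons use one dedicated set of these proteins at synapses, and blood cells use others, among them syntaxin 11, VAMP8 and Munc18-2, to release their granules.

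Values are FPKM, a fragment count scaled for transcript length and library size, given per library with replicate 1 first and n = 2 per group. Differences are on the log2(FPKM + 1) scale with ± their standard error from limma, which pooled the spread over all 24 libraries. A gene was called when its adjusted p was under 0.05 and its log2 difference at least 1 in size, and "rose", "fell", "higher" and "lower" with a test refer to that call. Of the 75 genes, 71 passed the filter on low values (at least 1 FPKM in at least 2 libraries): syt7b, syt8, cplx4a and cplx4c did not. Class medians cover every member of a class, tested or not, and medians over all genes cover the genes tested. Nothing in the labels ties replicates to separate clutches or sorts. The p-values therefore reflect only how far these samples spread, and that spread may be technical.

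Recovered library totals ran from 1741361 to 21338743 reads. The smallest was EC at 4 dpf, replicate 2, in which only 2483 genes were above 0, and HSPC at 4 dpf, replicate 2, had 11265. Both are called low-complexity. The HSPC libraries of 3 dpf were also poor in genes, with 13459 and 13274 above 0, beside 21080 and 19317 in DN cells of that stage. The reporter's own gene kdrl was at 5.16 and 3.68 FPKM in EC at 36 hpf but at 0.333 and 0.323 at 3 dpf, where DN cells had 0.257 and 0.387. The gene of CD41, itga2b, was at 6.55 and 5.72 FPKM in the libraries labelled EC at 3 dpf and at 6.54 and 7.98 in those labelled HSPC. At 36 hpf itga2b was at 0.43 and 0 FPKM in the libraries labelled HSPC, and at 0 in both EC and both DN libraries. EC and HSPC therefore mean the libraries labelled so throughout. Neuron markers were abundant in DN cells: 13 listed genes (elavl3, gap43, stmn2a and the like) summed to 2251 and 2043 FPKM in the 36 hpf libraries, 809 and 831 in those of 52 hpf, 2949 and 2763 in those of 3 dpf and 1913 and 1702 in those of 4 dpf. They summed to 8.82 and 18.7 FPKM in HSPCs at 3 dpf, where neurod1, nefma and isl1 were among the genes listed at 0 in both libraries. In bulk RNA fewer neurons and less RNA per neuron cannot be told apart.

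The neuronal class was a DN signal whose level depended on stage. Its 35 genes summed to 1706 and 1561 FPKM in the 36 hpf DN libraries, 678 and 660 in those of 52 hpf, 3375 and 3740 in those of 3 dpf and 2398 and 2314 in those of 4 dpf. In HSPCs the same sum was 415 and 494 FPKM (36 hpf) and 29.5 and 30.4 (3 dpf). In EC it was 439 in both 36 hpf libraries and 160 and 215 in those of 3 dpf. Every DN tail library thus lay above every EC and HSPC library, and the gap between DN cells and HSPCs was widest at 3 dpf. The 24 general genes were spread more evenly: 234 and 240 FPKM in DN cells, 359 and 382 in HSPCs and 284 and 314 in EC at 36 hpf. At 3 dpf they summed to 158 and 175 in DN cells, 224 and 208 in HSPCs and 391 and 273 in EC. At both stages the DN libraries held the lowest general sums and the highest neuronal sums. At 4 dpf the general sums were 256.9 and 277.4 in DN cells, 271.1 and 241.5 in HSPCs and 272.6 and 1098 in EC. The DN libraries were thus not the lowest in general genes at 4 dpf.

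**Figure D1:**
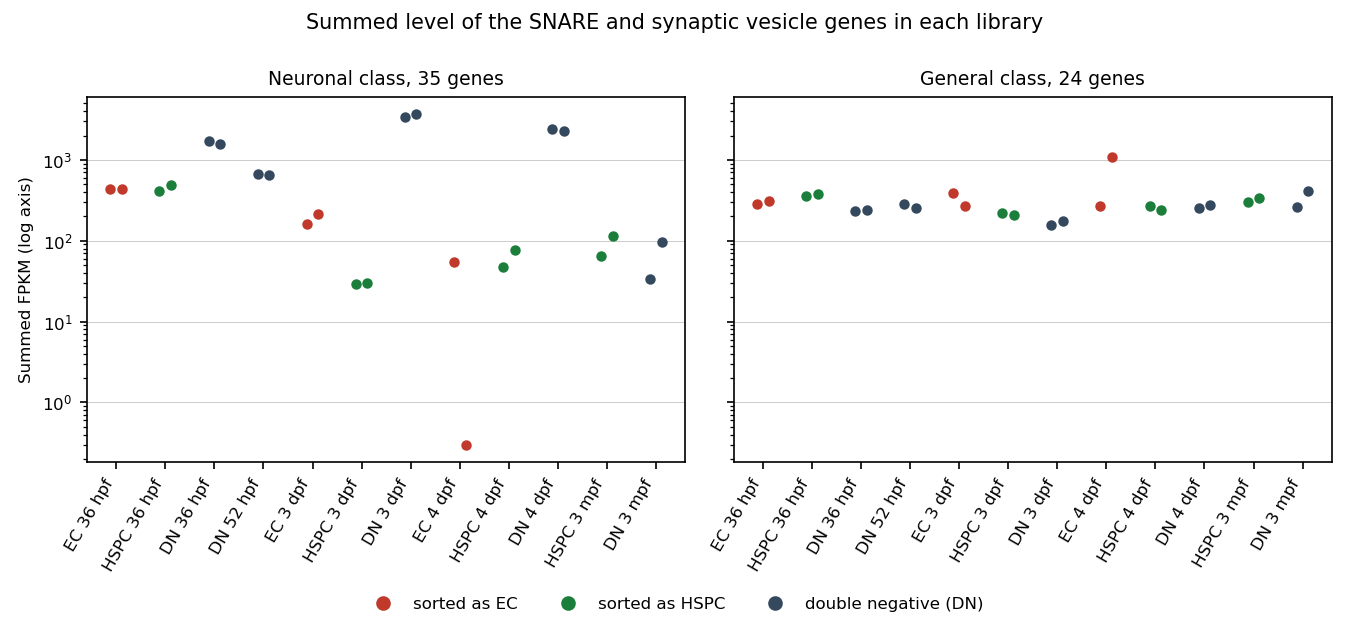
Summed FPKM (log axis) of the 35 neuronal and the 24 general genes in each of the 24 libraries, by cell type and stage, with replicate 1 to the left of replicate 2. The neuronal sum runs from 0.293 in EC at 4 dpf, replicate 2, to 3740 in DN at 3 dpf, replicate 2, while the general sum stays between 158 and 411 in all libraries but that EC library, at 1098.

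In 6 families the gene with the highest mean level is described. The target SNARE snap25a, with a mean of 109 FPKM over the 24 libraries, led the snap25 genes, and the vesicle SNARE vamp2 (synaptobrevin, 98.9 FPKM) led the vamp genes. Of the regulators, cplx1 (99.0 FPKM) led the complexins, stxbp1a (80.9 FPKM), which encodes Munc18-1, led the syntaxin-binding proteins, and syt4 (38.0 FPKM) led the synaptotagmins. sv2a, a transporter-like glycoprotein of the vesicle membrane, led its family at 14.8 FPKM. All 6 belong to the neuronal class.

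**Figure D2:**
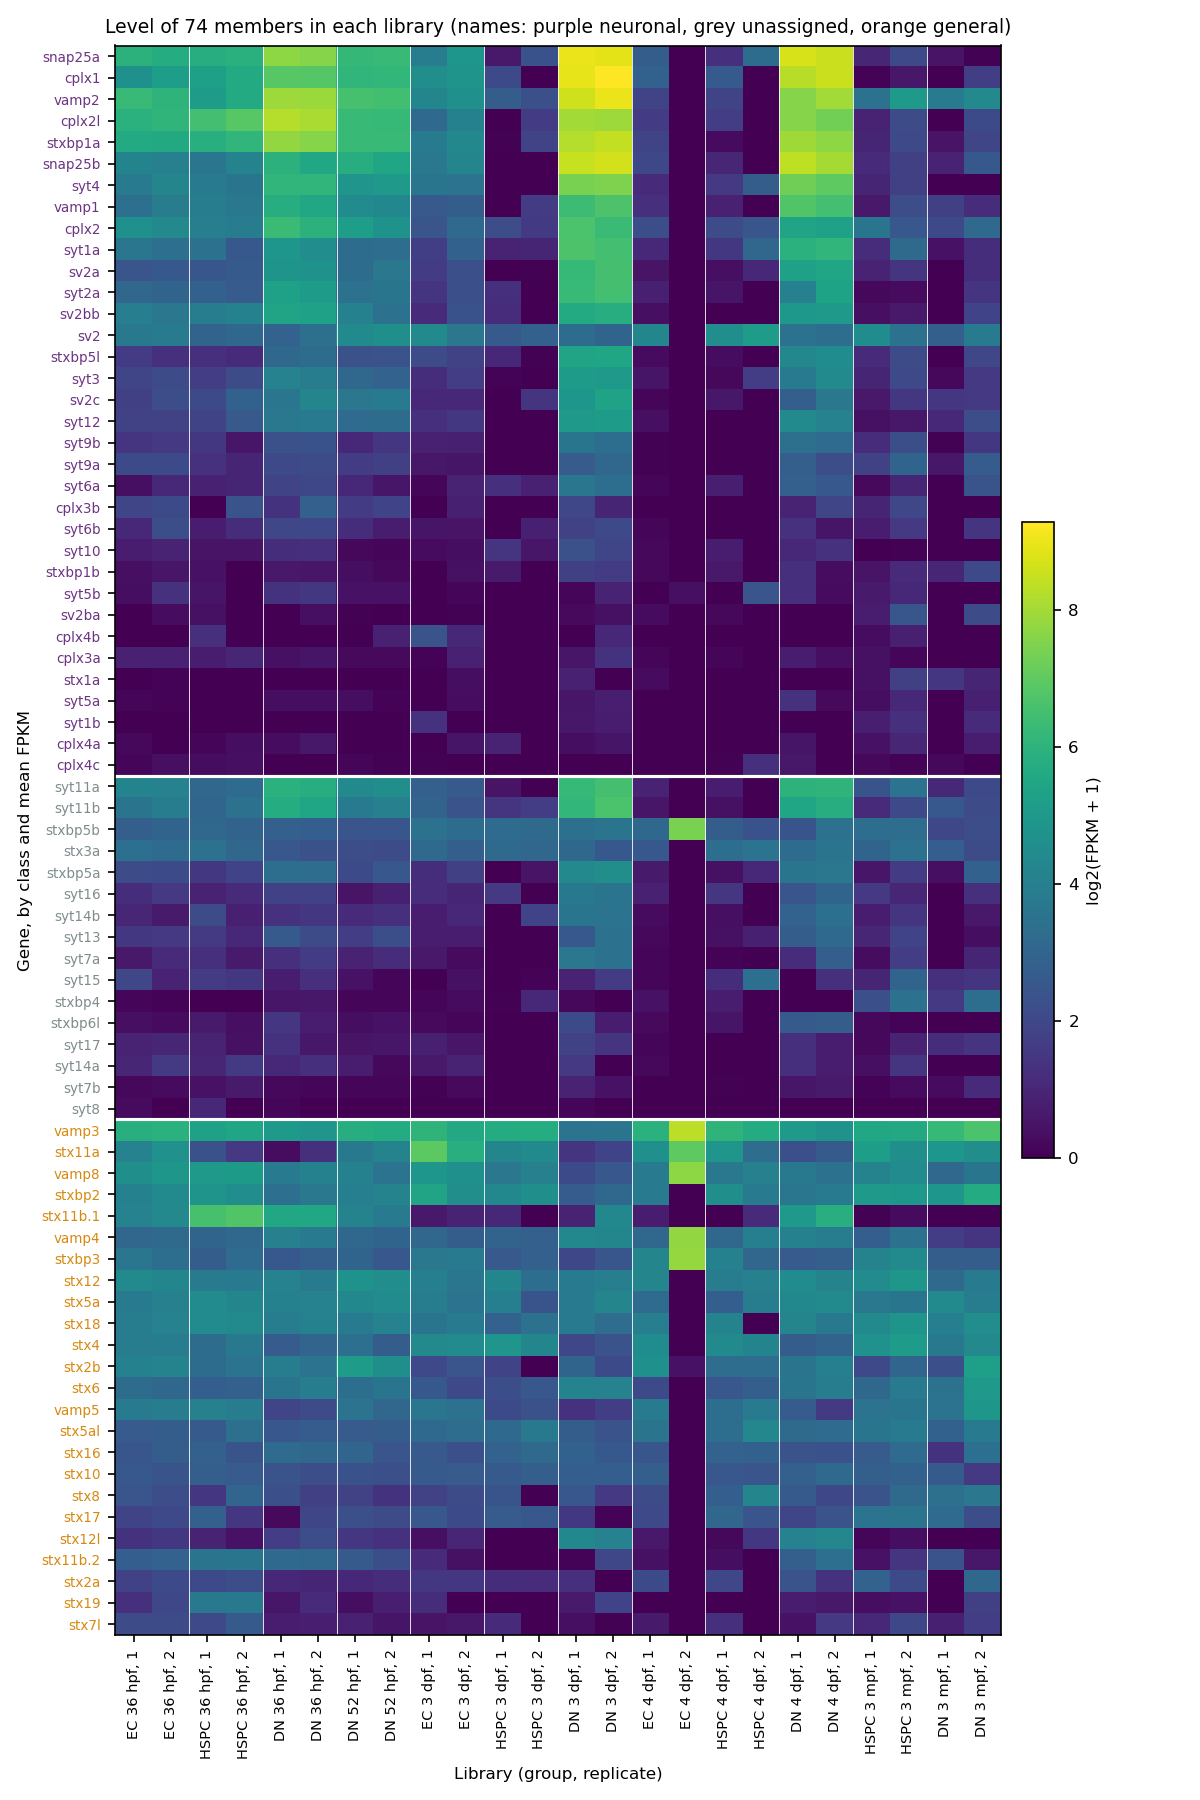
Level of 74 of the 75 genes, as log2(FPKM + 1), in each of the 24 libraries, grouped by class. The DN tail libraries stand out as bright columns across the neuronal class, and stx11a, vamp3 and vamp8 in the general class are brighter in EC and HSPCs than in DN cells at 3 dpf.

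In DN cells of the tail all 6 leaders were at their lowest at 52 hpf and at their highest at 3 dpf. For snap25a the values were 209 and 192 FPKM (36 hpf), 71.7 and 75.7 (52 hpf), 512 and 474 (3 dpf) and 420 and 370 (4 dpf). vamp2 ran from 244 and 234 through 94.6 and 88.2 to 394 and 513 and then 195 and 255 FPKM over the same 4 stages. For both of these SNAREs the replicates lay close together and the 36 hpf, 52 hpf and 3 dpf groups did not overlap.

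The regulators followed. For cplx1 the DN values were 117 and 113 FPKM (36 hpf), 67.4 and 70.3 (52 hpf), 486 and 624 (3 dpf) and 308 and 374 (4 dpf). stxbp1a was at 221 and 193, then 75.4 and 76.4, then 306 and 345, then 249 and 207 FPKM. syt4, a synaptotagmin of neuronal and neuroendocrine vesicles, was at 67.4 and 69.0, then 27.5 and 31.5, then 168 and 181, then 153 and 127 FPKM. In each of the 3 genes the 52 hpf libraries were the lowest and the 3 dpf libraries the highest of the 3 earlier stages. sv2a was at 27.2 and 26.1, then 8.64 and 11.9, then 73.8 and 93.7, then 39.0 and 43.6 FPKM.

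**Figure D3:**
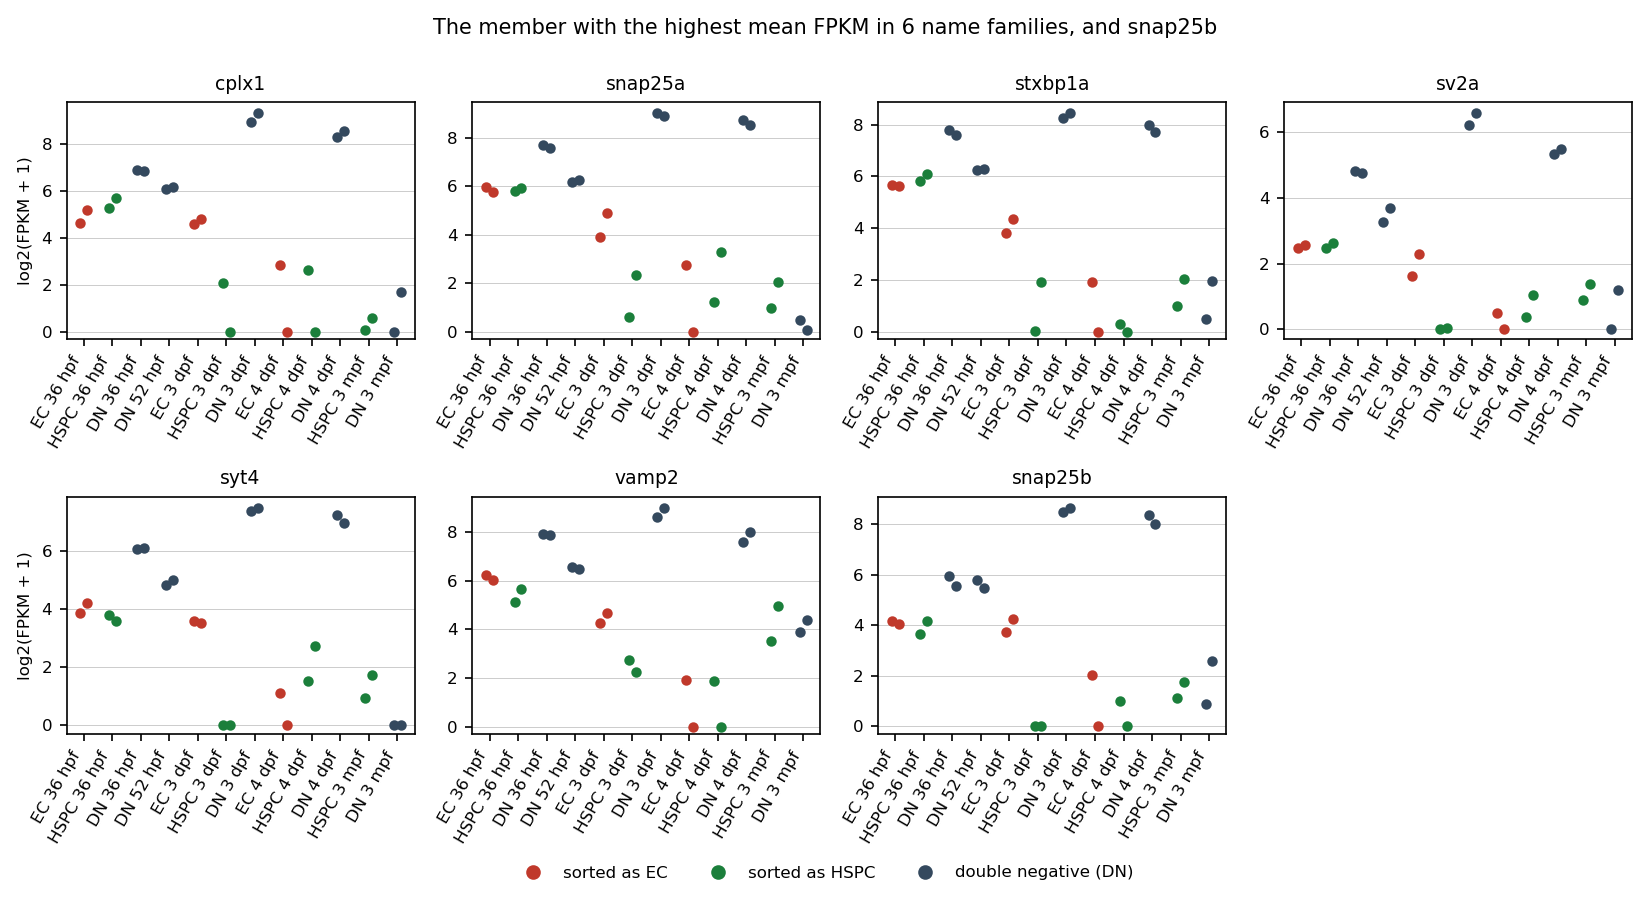
Level, as log2(FPKM + 1), of 6 family leaders and snap25b in each library by stage, with EC in red, HSPCs in green and DN cells dark. In every panel the DN points at 3 dpf lie highest and the HSPC points at 3 dpf lie far below them.

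The drop from 36 to 52 hpf was not called for any neuronal gene. The neuronal median was -0.99 beside -0.13 over all genes tested, and of 71 genes 1 rose and 0 fell, beside 1.02% and 0.932% of all genes; 10 had an unadjusted p under 0.05, and limma-voom on recovered reads called 0. The gene that rose was stx11a, the syntaxin that cytotoxic lymphocytes and platelets use for granule release. Its level was 0.235 and 1.37 FPKM in the 36 hpf libraries and 12.7 and 16.8 in those of 52 hpf, a difference of 3.19 ± 0.74 (limma, adjusted p = 0.03497). That call was lost when any 1 of the 4 libraries was left out. Without both low-complexity libraries, which leaves the spread estimate to the rest, 11 genes were called, 2 higher and 9 lower.

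The neutrophil list (lyz, mpx, npsn, mmp13a and cpa5) moved with stx11a here: it summed to 107 and 111 FPKM in DN cells at 36 hpf and 1046 and 1615 at 52 hpf, with 1 of its 5 genes called higher and none at 0. Among other lists 1 of 6 thrombocyte and 1 of 7 endothelium markers were called higher, and 1 of 13 neuron markers lower. The part of these lists in the result was not tested. The 4 erythroid genes summed to 3956 and 4176 FPKM at 36 hpf and 86730 and 80010 at 52 hpf, with 3 called higher, so that the DN mixture also held far more erythroid RNA at 52 hpf. The part of this in the lower neuronal values of 52 hpf was not tested.

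From 52 hpf to 3 dpf part of the neuronal class rose in DN cells. Of 71 genes 25 were called higher and 2 lower, beside 9.63% and 3.91% of all genes tested, and 39 had an unadjusted p under 0.05. Those higher were 17 of 33 neuronal genes, 7 unassigned genes and stx12l of the general class. The median over neuronal genes was 1.80, beside 0.16 over all genes. The count depended on these settings: with 1 of the 4 libraries left out it was 12 to 15, limma-voom called 0, a pseudocount of 0.1 called 1, and without both low-complexity libraries it was 40.

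The largest rise on the log2(FPKM + 1) scale was in syt1a, the calcium sensor of fast transmitter release, from 8.62 and 8.89 FPKM at 52 hpf to 104 and 89.4 at 3 dpf (3.32 ± 0.70, 11 times the mean level, limma adjusted p = 0.003531). stxbp5l, a tomosyn-type protein that competes for the SNARE bundle, went from 3.98 and 4.22 to 42.0 and 44.5 FPKM (3.12 ± 0.56, limma adjusted p = 0.001134). syt16, an unassigned synaptotagmin, went from 0.404 and 0.745 to 12.6 and 10.9 FPKM (3.03 ± 0.55, limma adjusted p = 0.0013). In none of the 3 genes did the groups overlap. cplx1 rose by a log2 difference of 2.98 ± 0.94 (limma adjusted p = 0.04238) and snap25b, from 54.5 and 43.2 to 359 and 400 FPKM, by 2.94 ± 0.69 (limma adjusted p = 0.007658). The cplx1 call was lost when any 1 of the 4 libraries was left out, and that of snap25b without replicate 2 of either stage.

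The genes that fell were both of the general class. stx11a went from 12.7 and 16.8 to 1.69 and 2.61 FPKM (-2.32 ± 0.74, limma adjusted p = 0.04464). vamp3, the cellubrevin of recycling endosomes, went from 54.8 and 51.6 to 10.5 and 10.8 FPKM (-2.22 ± 0.65, limma adjusted p = 0.02744). The groups did not overlap in either gene, and both calls were lost when any 1 of the 4 libraries was left out. Beside them the neuron list had 6 of 13 genes called higher. The neutrophil list, which summed to 89.0 and 172 FPKM at 3 dpf, had 2 of 5 called lower. Of 4 erythroid genes 3 were called lower. Their hbae3 was at 69330 and 65460 FPKM at 52 hpf and 3297 and 6754 at 3 dpf. Lower too were 2 of 6 thrombocyte, 1 of 7 endothelium and 1 of 6 epidermis markers. Of 6 glia and Schwann cell markers 2 were higher and 1 lower. The part of these lists in the rise and the falls was not tested. Of 40 tested partner genes of the synaptic vesicle and active zone, which are no members, 29 rose and 0 fell, beside 9.63% and 3.91% of all genes tested. They were led by cadpsb, a vesicle-priming CAPS protein (3.23 ± 0.59, limma adjusted p = 0.001238), and slc6a5, the glycine transporter of inhibitory neurons (3.06 ± 0.75, limma adjusted p = 0.009436). That list was drawn with earlier results of these data known, so its count is no independent support.

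Between 3 and 4 dpf no member was called in DN cells, beside 0.138% of all genes higher and 0.0618% lower. limma gave 8 members an unadjusted p under 0.05, and limma-voom called 0. Without both low-complexity libraries limma called 2, and without either DN 3 dpf library 1.

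Paralog pairs did not keep one proportion in DN cells over these stages; the pairs were picked after their values were seen and carry no test. The snap25b to snap25a ratio was 0.292 and 0.242 (36 hpf), 0.760 and 0.571 (52 hpf), 0.701 and 0.843 (3 dpf) and 0.792 and 0.703 (4 dpf). The cplx1 to cplx2l ratio was 0.383 and 0.410, then 0.884 and 0.942, then 1.92 and 2.55, then 1.60 and 2.40. So snap25a and cplx2l were the larger share at 36 hpf. snap25a stayed the larger at every stage, while cplx1 overtook cplx2l by 3 dpf. The vamp1 to vamp2 ratio changed later. It was 0.224 and 0.199 (36 hpf), 0.227 and 0.220 (52 hpf) and 0.209 and 0.201 (3 dpf), then 0.556 and 0.351 (4 dpf). Reads of close paralogs may have been split by the counting.

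HSPCs held less of the neuronal class than DN cells already at 36 hpf, though not little in absolute terms. vamp2 was at 33.6 and 49.6 FPKM in HSPCs and 244 and 234 in DN cells, a difference of -2.52 ± 0.73 (limma adjusted p = 0.04423). syt2a, a fast calcium sensor like syt1a, was at 6.30 and 5.39 against 38.5 and 33.1 FPKM (-2.43 ± 0.60, limma adjusted p = 0.01892), and syt4 at 12.9 and 11.1 against 67.4 and 69.0 (-2.41 ± 0.56, limma adjusted p = 0.01257). The HSPC libraries were the lower in all 3 genes, with no overlap. The 2 genes of syt11, a synaptotagmin that does not bind calcium, were lower too. syt11a was at 7.38 and 8.43 against 60.4 and 54.5 FPKM (-2.72 ± 0.56, limma adjusted p = 0.006289), and syt11b at 7.08 and 10.2 against 53.3 and 43.0 (-2.36 ± 0.52, limma adjusted p = 0.009552).

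In all, 9 of 71 genes were lower in HSPCs than in DN cells at 36 hpf and 1 higher, beside 4.48% and 2.8% of all genes tested; 28 had an unadjusted p under 0.05. Of 33 neuronal genes tested 7 were lower. The median over all 35 was -1.36, beside 0.00 over all genes tested. The 9 are vamp2, syt2a, syt3, syt4, syt12, stxbp5l, sv2a, syt11a and syt11b. limma-voom and a pseudocount of 0.1 each called 0, median-of-ratios scaling called 12, leaving out any 1 of the 4 libraries left 0 (without DN replicate 1) or stx19 alone, and without both low-complexity libraries 24 were called, 5 higher and 19 lower. Neuron markers summed to 507 and 544 FPKM in these HSPCs, with 4 of 13 called lower and none at 0. Called lower too were 2 of 6 glia and Schwann cell and 1 of 4 erythroid markers. Called higher were 1 of 6 skeletal muscle, 1 of 5 neutrophil and 1 of 4 hair cell markers. Of 7 endothelium markers 1 was higher and 1 lower. The part of these marker lists in the result was not tested.

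The gene higher in HSPCs at 36 hpf was stx19, a syntaxin that is known from epithelia in mammals. It was at 12.5 and 12.4 FPKM in HSPCs and 0.483 and 1.22 in DN cells, 14.6 times the mean level (2.89 ± 0.51, limma adjusted p = 0.002196). Elsewhere it was listed at 0 in both HSPC libraries at 3 dpf and 4 dpf and stayed under 3 FPKM in every library of other groups. stx11b.1 was also at its highest in these HSPCs, at 94.7 and 109 FPKM against 45.0 and 46.3 in DN cells, a difference that was not called. The epidermis list (krt4, krt5, cyt1, cldne, epcam and cdh1) was at its highest in the same libraries, at 12070 and 13090 FPKM beside 7534 and 8603 in DN cells, with 0 of 6 genes called. Its part was not tested.

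EC at 36 hpf were set against the same DN libraries. stx11a was at 16.4 and 25.1 FPKM in EC and 0.235 and 1.37 in DN cells, 25.8 times the mean level (3.64 ± 0.74, limma adjusted p = 0.01101). sv2a, at 4.52 and 4.87 against 27.2 and 26.1 FPKM, was lower (-2.28 ± 0.50, limma adjusted p = 0.01641). syt4, at 13.5 and 17.7 FPKM (-2.07 ± 0.56, limma adjusted p = 0.04915), and syt12, a synaptotagmin of brain, at 2.56 and 2.51 against 12.2 and 12.7 FPKM (-1.93 ± 0.44, limma adjusted p = 0.02027), were the others. The groups did not overlap in any of the 4 genes. These 3 lower and 1 higher of 71 stand beside 1.21% and 2.12% of all genes, and 24 had an unadjusted p under 0.05. The neuronal median was -1.27 beside 0.08 over all genes.

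With any 1 of the 4 libraries left out, none of these 36 hpf calls of EC was made. limma-voom and a pseudocount of 0.1 called 1 each, median-of-ratios scaling 1 higher and 10 lower, and the fit without both low-complexity libraries 20, 2 higher and 18 lower. The neutrophil list summed to 2113 and 3411 FPKM in EC and 107 and 111 in DN cells, with 3 of 5 called higher and none at 0. Of the endothelium list 3 of 7 genes were called higher as well, and of the neuron list 1 of 13 lower. The part of these lists in the value of stx11a and in the lower genes was not tested.

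At 3 dpf the neuronal set was near 0 in HSPCs. snap25a was at 0.543 and 4.09 FPKM in HSPCs and 512 and 474 in DN cells (-7.46 ± 0.85, limma adjusted p = 1.8e-06). snap25b was listed at 0 in both HSPC libraries and at 359 and 400 in DN cells (-8.57 ± 0.69, limma adjusted p = 1.4e-07). With each 0 set at a floor of 3 reads per library it was 1924-fold lower. That floor covers counting error only, and HSPC replicates could differ by more, as vamp1 did at 0 and 48 reads. Folds against a group at 0 are therefore no firm lower bounds, here and below. snap25a and snap25b both encode a target SNARE of the synapse, and no HSPC library came near a DN library. For the vesicle side vamp2 was at 5.66 and 3.79 FPKM against 394 and 513, and was called lower.

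Regulators were as low. cplx1 was at 3.29 and 0 FPKM in HSPCs against 486 and 624 in DN cells (-8.06 ± 0.94, limma adjusted p = 2.6e-06). syt4 was listed at 0 in both HSPC libraries against 168 and 181 FPKM (-7.45 ± 0.56, limma adjusted p = 1.2e-07), 1301-fold lower at the floor of 3 reads. stxbp1a was at 0.0279 and 2.75 against 306 and 345 FPKM (-7.38 ± 0.74, limma adjusted p = 5.4e-07). The replicate spread in HSPCs, where single values near 0 differ by several FPKM, was small beside the distance to DN cells. Of the 35 neuronal genes, 14 were listed at 0 in both HSPC libraries. Zeros were common there among all genes: 13459 and 13274 of the 25067 in the table were above 0. The count of 14 is therefore not read as a trait of the neuronal class.

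Over the whole list 36 of 71 genes were lower in HSPCs than in DN cells at 3 dpf and 2 higher, beside 23.5% and 5.56% of all genes; 43 had an unadjusted p under 0.05. The lower genes were 24 of 33 neuronal, 3 of 24 general and 9 of 14 unassigned genes. The class medians were -4.40 for neuronal and 0.14 for general genes, beside -0.41 over all genes, and median-of-ratios scaling shifted that last value by -0.27. The neuronal share therefore lay far above the background of lower genes and the general share below it. The neuronal genes not called were syt1b, syt5a, syt5b, cplx3a, cplx3b, cplx4b, stx1a, sv2 and sv2ba. All but sv2 stayed under 10 FPKM in every library, and sv2 was at 5.14 and 6.25 FPKM in HSPCs and 8.63 and 6.88 in DN cells.

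sv2 stood apart from sv2a, sv2bb and sv2c. It was called in 0 of the 13 comparisons between 2 groups, while sv2a was called lower in HSPCs and EC than in DN cells at 36 hpf, 3 dpf and 4 dpf. The low gene sv2ba was called in 0 of the 13 as well. In the 36 hpf libraries sv2 was at 12.5 and 13.2 FPKM (EC), 6.854 and 7.715 (HSPCs) and 6.58 and 9.89 (DN cells). HSPCs of 4 dpf had 22.4 and 33.2 FPKM, beside 10.4 and 8.89 in DN cells. Kidney HSPCs had 22.1 and 10.2 FPKM, beside 6.02 and 13.3 in kidney DN cells. The 52 hpf DN libraries held 21.0 and 23.9 FPKM, so high sv2 values were not limited to HSPCs and EC. The place of sv2 in the neuronal class rests on its name alone. sv2bb and sv2c followed sv2a, with 50.1 and 53.9 and 28.1 and 39.7 FPKM in DN cells at 3 dpf, and both were called lower in HSPCs and in EC.

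Among general genes stx11a and vamp3 were higher in HSPCs than in DN cells at 3 dpf. stx11a was at 18.2 and 20.6 FPKM against 1.69 and 2.61 (2.71 ± 0.74, 9.03 times the mean level, limma adjusted p = 0.009233). vamp3 was at 51.8 and 52.5 against 10.5 and 10.8 FPKM (2.19 ± 0.65, 4.89 times, limma adjusted p = 0.01475). Neither pair of groups overlapped. The vamp3 call was lost by limma-voom and when any 1 of the 4 libraries was left out, and the stx11a call without HSPC replicate 2 or DN replicate 1. The neutrophil list summed to 4328 and 4049 FPKM in these HSPCs beside 89.0 and 172 in DN cells, with 4 of 5 called higher and none at 0, and the thrombocyte list to 65.4 and 83.6 beside 18.8 and 23.5, with 3 of 6 called higher. Their part was not tested.

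The 3 general genes that were lower in HSPCs at 3 dpf were stx12l, stx11b.1 and stx6. stx12l, named after the recycling endosome syntaxin 12, was listed at 0 in both HSPC libraries and at 19.1 and 16.5 FPKM in DN cells (-4.23 ± 0.42, limma adjusted p = 5.4e-07), and in DN cells it rose from 1.80 and 1.49 at 52 hpf (2.83 ± 0.42). It was placed in the general class by name, and its calls had the direction of the neuronal genes. stx12 itself was called in no comparison between 2 groups. stx6, a syntaxin of the trans-Golgi network, was at 3.74 and 4.79 against 16.6 and 16.5 FPKM (-1.75 ± 0.64, limma adjusted p = 0.0488). stx11b.1 was at 1.11 and 0 FPKM against 0.912 and 19.2, so its DN replicates differed widely and the groups overlapped (-2.10 ± 0.77, limma adjusted p = 0.04932).

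**Figure D4:**
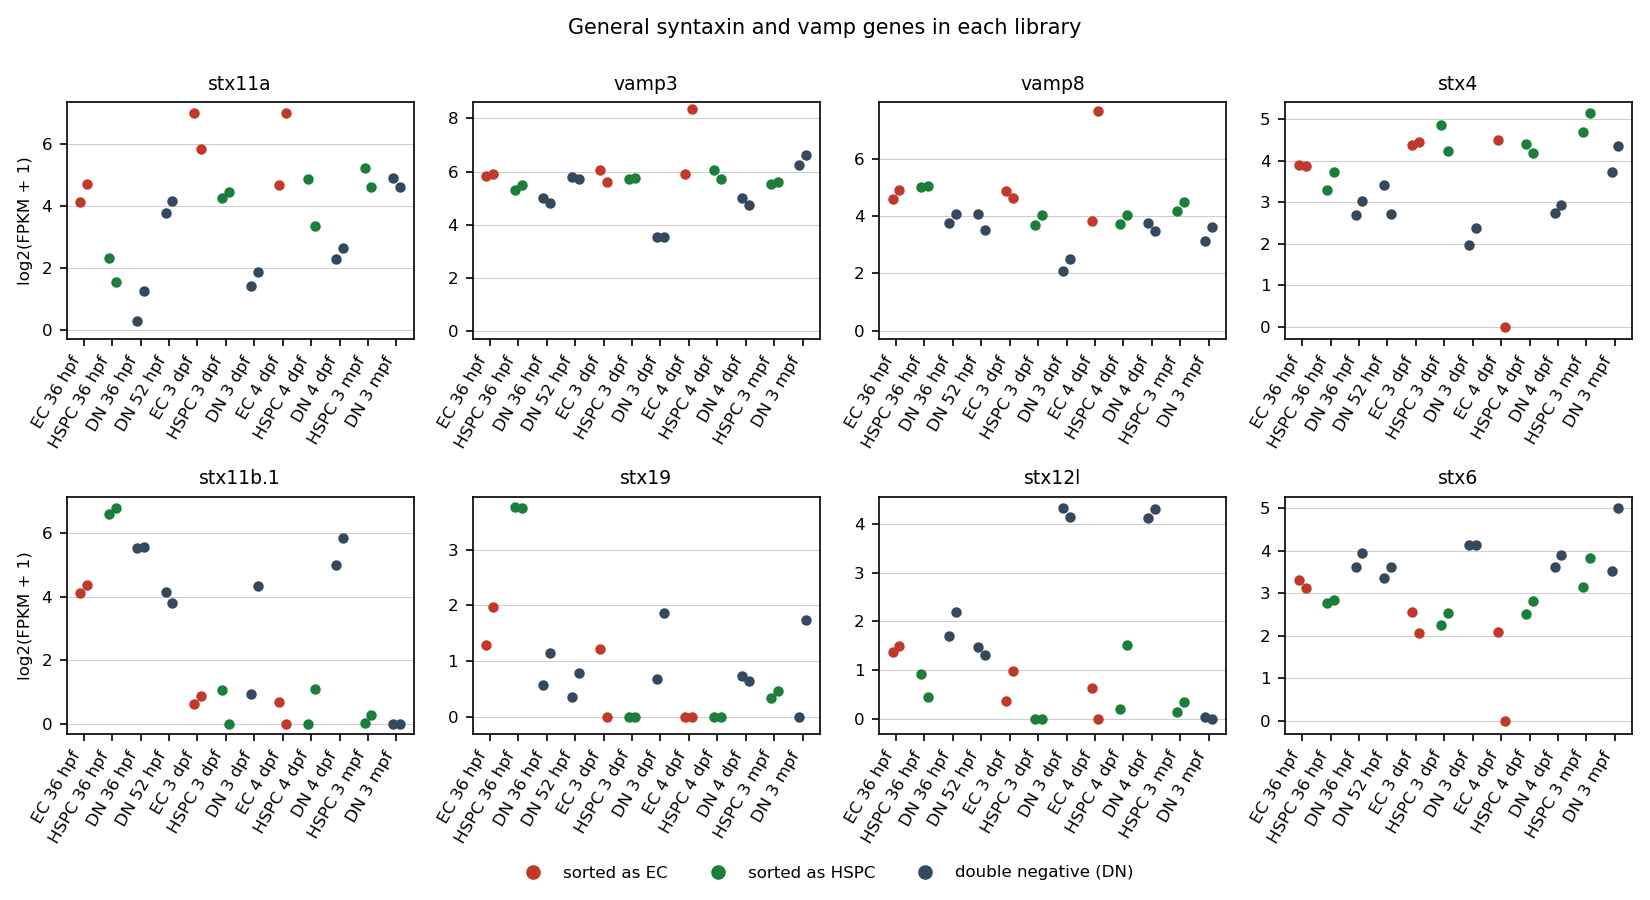
Level, as log2(FPKM + 1), of 8 general genes in each library by stage and cell type, colours as in the plot of the family leaders. stx11a, vamp3, vamp8 and stx4 lie lower in DN cells than in EC at 3 dpf, stx12l and stx6 lie higher there, and stx11b.1 and stx19 are highest in HSPCs at 36 hpf.

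Partner genes that are no members were read beside these. The partner lists were drawn with earlier results of these data known, so their counts are no independent support. Of 40 synaptic partner genes tested 36 were lower in HSPCs than in DN cells at 3 dpf and 0 higher, beside 23.5% and 5.56% of all genes. They were led by sypa, a synaptophysin of the vesicle membrane. It was listed at 0 in both HSPC libraries and at 423 and 476 FPKM in DN cells (-8.81 ± 0.83, limma adjusted p = 3.2e-07). Of 29 general fusion genes 1 was higher and 4 lower. unc13d, the Munc13-4 priming factor of blood cell granules, was at 31.9 and 31.1 against 0.254 and 0.475 FPKM (4.58 ± 1.11, limma adjusted p = 0.003759). nsfa, one of a pair of genes for the ATPase that takes spent SNARE bundles apart, was at 0 and 0.459 against 76.8 and 95.7 FPKM (-6.17 ± 0.64, limma adjusted p = 7.6e-07).

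All 13 neuron markers were called lower in HSPCs at 3 dpf, from 2949 and 2763 FPKM in DN cells to 8.82 and 18.7. Glia and Schwann cell markers (6 genes) summed to 76.8 and 76.9 FPKM in DN cells and were all listed at 0 in both HSPC libraries. Called lower too were 5 of 6 skeletal muscle, 4 of 6 epidermis, 3 of 4 erythroid and 2 of 4 hair cell markers. Among endothelium markers 2 of 7 were called higher. The part of these lists in the result was not tested. Leaving out any 1 of the 4 libraries gave 32 to 35 calls, and limma-voom 38, 1 higher and 37 lower.

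EC at 3 dpf, set against the same DN libraries, showed the neuronal set at an intermediate level. snap25a was at 14.0 and 28.6 FPKM in EC (-4.55 ± 0.85, limma adjusted p = 5.2e-04), and snap25b at 12.2 and 17.8 (-4.59 ± 0.69, limma adjusted p = 8.2e-05, 25.2-fold lower in mean level). syt2a was at 1.72 and 3.82 FPKM (-4.53 ± 0.60, limma adjusted p = 2.8e-05) and sv2a at 2.10 and 3.86 (-4.44 ± 0.50, limma adjusted p = 1.2e-05). No EC library reached a DN library in these 4 genes. Lower in EC were 34 of 71 genes and higher 3, beside 17.1% and 5.28% of all genes; 44 had an unadjusted p under 0.05. The neuronal part was 24 of 33 tested. The median over all 35 neuronal genes was -3.50, beside -0.16 over all genes tested, a value that median-of-ratios scaling shifted by -0.35.

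The higher genes were stx11a, vamp8 and vamp3. stx11a was at 124 and 55.9 FPKM in EC and 1.69 and 2.61 in DN cells, 41.9 times the mean level (4.76 ± 0.74, limma adjusted p = 1.1e-04). vamp3 was at 65.6 and 47.5 against 10.5 and 10.8 FPKM (2.28 ± 0.65, limma adjusted p = 0.01402). vamp8, a SNARE of late endosomes and platelet granules, was at 28.4 and 24 against 3.21 and 4.74 FPKM (2.46 ± 0.83, limma adjusted p = 0.03875). The groups did not overlap, but the vamp8 call was lost under median-of-ratios scaling, limma-voom, a pseudocount of 0.1 and each library left out, and the vamp3 call by limma-voom and when 3 of the 4 libraries were left out in turn.

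stx12l, at 0.286 and 0.993 FPKM (-3.55 ± 0.42, limma adjusted p = 1.5e-05), and stx6, at 4.93 and 3.19 (-1.82 ± 0.64, limma adjusted p = 0.04962), were lower in EC as in HSPCs. Synaptic partner genes were lower in 35 of 40, beside 17.1% of all genes. Neuron markers summed to 110 and 182 FPKM in EC, with all 13 called lower and none at 0. Neutrophil markers reached 10670 and 10090, with all 5 called higher, and macrophage markers 19.9 and 37.7 beside 1.41 and 0.161 in DN cells, with 3 of 4 called higher. Thrombocyte markers summed to 144.5 and 82.8 beside 18.8 and 23.5, with 3 of 6 called higher. Of 7 endothelium markers 1 was called higher. Called lower too were 5 of 6 glia and Schwann cell and 2 of 4 hair cell markers. The part of these lists was not tested. limma-voom called 20, 1 higher and 19 lower, and leaving out any 1 library gave 31 to 34.

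**Figure D5:**
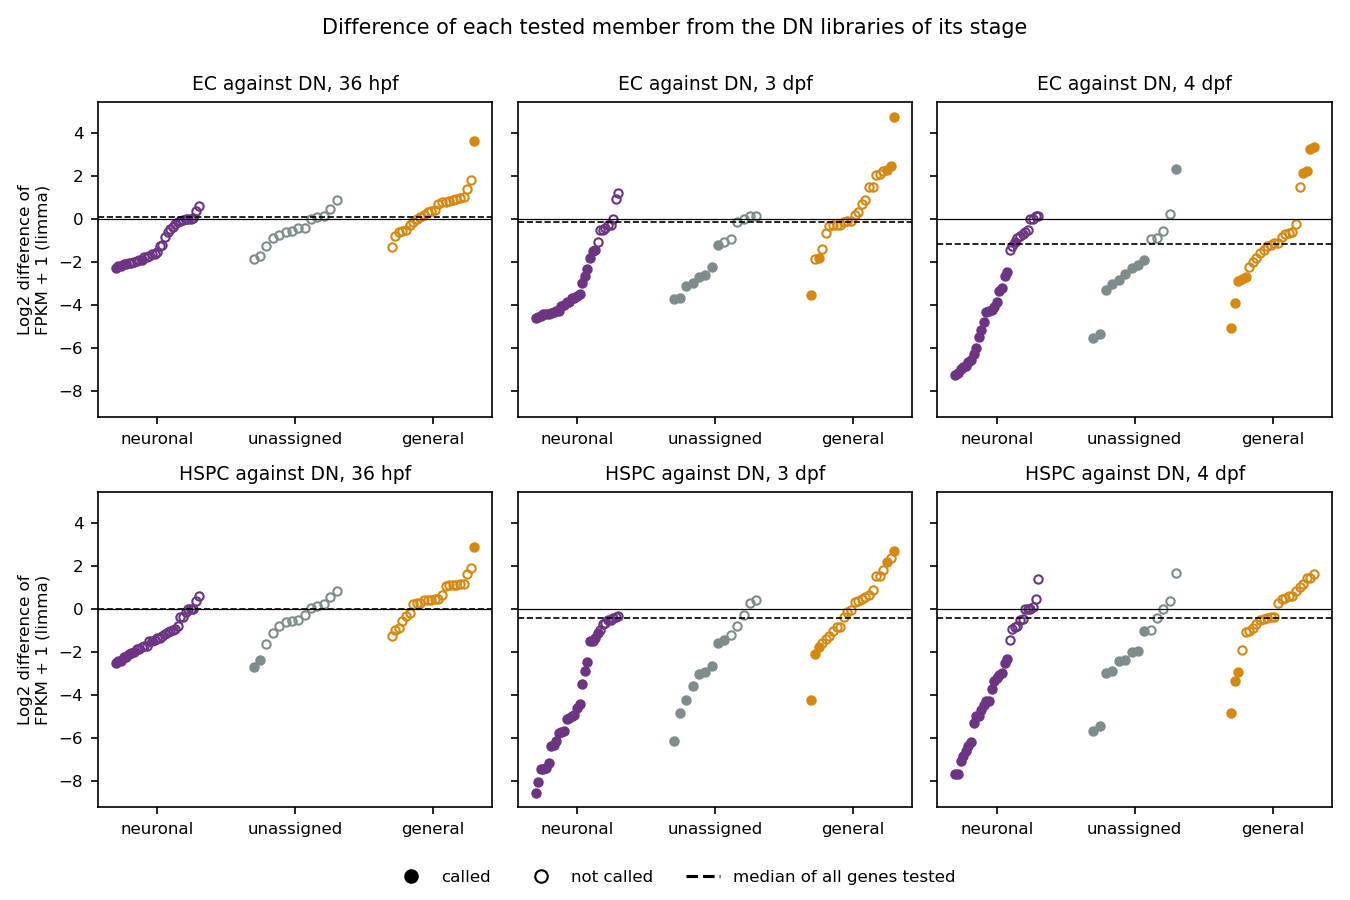
Log2 difference of EC and HSPCs from DN cells at 36 hpf, 3 dpf and 4 dpf for each tested gene by class, filled where limma called it; the dashed line marks the median of all genes tested. Neuronal medians, over all 35 genes, run from -1.27 (EC at 36 hpf) to -4.40 (HSPCs at 3 dpf), while general genes scatter around the dashed line.

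Set directly against EC, HSPCs at 3 dpf were lower in 3 genes and higher in 0 of 71, beside 0.78% and 0.0856% of all genes; 18 had an unadjusted p under 0.05. snap25b, at 0 in both HSPC libraries and 12.2 and 17.8 FPKM in EC, was 76.2-fold lower at the floor of 3 reads (-3.98 ± 0.69, limma adjusted p = 0.01162). syt4, at 0 in both against 11.2 and 10.7 FPKM, was 81.4-fold lower at that floor (-3.57 ± 0.56, limma adjusted p = 0.00629). syt11a was at 0.412 and 0 against 6.12 and 5.13 FPKM (-2.48 ± 0.56, limma adjusted p = 0.04366). The groups did not overlap in these genes. The count was 0 with any 1 of the 4 libraries left out, 5 at a pseudocount of 0.1, and 14 both by limma-voom and without the low-complexity libraries. Neuron markers were lower in HSPCs here in 4 of 13, and their part was not tested.

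The change of the HSPC minus DN difference from 36 hpf to 3 dpf was tested as an interaction. It became more negative in 26 of 71 genes and more positive in 0, beside 14.2% and 1.27% of all genes; 32 had an unadjusted p under 0.05. Of the 26, 19 were neuronal, 5 unassigned and 2 general (stx12l, and stx19, which had been higher in HSPCs at 36 hpf). cplx1 and snap25b moved most, by -6.70 ± 1.33 (limma adjusted p = 0.003045) and -6.70 ± 0.98 (limma adjusted p = 5.8e-04). cplx2l moved by -5.67 ± 1.15 (limma adjusted p = 0.003339), snap25a by -5.67 ± 1.20 (limma adjusted p = 0.004219) and stxbp1a by -5.64 ± 1.04 (limma adjusted p = 0.002007). The neuronal median was -2.38 beside -0.48 over all genes, which scaling shifted by -0.38. At a pseudocount of 0.1 the calls of cplx1 and cplx2l were lost. The same way went the calls of 13 of 13 neuron, 6 of 6 skeletal muscle, 3 of 4 hair cell, 3 of 4 erythroid, 3 of 6 glia and Schwann cell and 1 of 6 epidermis markers, and their part was not tested.

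The libraries labelled HSPC were also compared between these stages. Their itga2b levels differed as given above, so the cells sorted may differ too. In them cplx2l went from 90.03 and 115.5 FPKM to 0 and 2.04 (-5.88 ± 0.81, limma adjusted p = 4.5e-05), and stxbp1a from 55.6 and 67.7 to 0.0279 and 2.75 (-4.99 ± 0.74, limma adjusted p = 8.5e-05). snap25a went from 54.8 and 59.2 to 0.543 and 4.09 FPKM (-4.37 ± 0.85, limma adjusted p = 9.2e-04). The stages did not overlap in any of the 3 genes. Within HSPCs 25 of 71 genes fell and 1 rose, beside 19.6% and 2.52% of all genes; 33 had an unadjusted p under 0.05. Of 33 neuronal genes tested 17 fell. The median over all 35 was -1.19, or -0.96 with all-zero groups set at 3 reads. Over all genes tested it was -0.31, which scaling shifted by -0.28.

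The largest fall in HSPCs on the log2(FPKM + 1) scale was in the general class. stx11b.1 went from 94.7 and 109 to 1.11 and 0 FPKM (-6.14 ± 0.77, limma adjusted p = 2.1e-05), and stx11b.2, stx19 (-3.75) and stx7l fell as well. Its paralog stx11a rose, from 3.96 and 1.90 to 18.2 and 20.6 FPKM (2.42 ± 0.74, limma adjusted p = 0.02431), a call lost by limma-voom and when any 1 of the 4 libraries was left out. In FPKM the genes named for syntaxin 11 exchanged places: stx11b.1 was the larger at 36 hpf and stx11a at 3 dpf. Epidermis markers summed to 12070 and 13090 FPKM in HSPCs at 36 hpf and 160 and 150 at 3 dpf, with all 6 called lower, and neutrophil markers to 979 and 755 and then 4328 and 4049, with 1 of 5 called higher. All 13 neuron markers fell, as did 6 of 6 skeletal muscle markers (3623 and 4070 to 12.6 and 7.50 FPKM in sum), 4 of 4 hair cell, 4 of 6 glia and Schwann cell and 3 of 4 erythroid markers. Among thrombocyte markers 2 of 6 were called higher, while 1 of 4 macrophage and 1 of 7 endothelium markers were called lower. The part of these lists was not tested, and the stages may differ in dissection. The count was 15 without HSPC 36 hpf replicate 2 or HSPC 3 dpf replicate 2, 17 without HSPC 3 dpf replicate 1, and 31 by limma-voom.

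The largest differences of HSPCs from DN cells at 4 dpf were again in neuronal genes. stxbp1a was at 0.210 and 0 FPKM in HSPCs against 249 and 207 in DN cells (-7.70 ± 0.74, limma adjusted p = 9.9e-07). snap25b was at 1.01 and 0 against 333 and 260 FPKM (-7.70 ± 0.69, limma adjusted p = 7.4e-07), and cplx1 at 5.21 and 0 against 308 and 374 (-7.09 ± 0.94, limma adjusted p = 1.7e-05). All HSPC values lay far under all DN values. vamp2 (2.71 and 0 against 195 and 255 FPKM) differed by -6.86 ± 0.73 (limma adjusted p = 2.2e-06) and cplx2l (2.22 and 0 against 192 and 156 FPKM) by -6.60 ± 0.81 (limma adjusted p = 7.7e-06).

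Of 71 genes 33 were lower in HSPCs at 4 dpf and 0 higher, beside 21.6% and 3.08% of all genes; 39 had an unadjusted p under 0.05. They were 21 neuronal, 3 general (stx11b.1, stx11b.2 and stx12l) and 9 unassigned genes. The neuronal median was -3.07 beside -0.41 over all genes, which scaling shifted by -0.21. HSPC replicate 2 is a low-complexity library. Without it 30 genes were called and without replicate 1, 36. Neuron markers summed to 11.6 and 37.6 FPKM in HSPCs, with 13 of 13 called lower, stmn2a at 0 in both libraries and 8 at 0 in replicate 2. Called lower too were 6 of 6 glia and Schwann cell, 4 of 6 skeletal muscle, 5 of 6 epidermis and 3 of 4 hair cell markers. Called higher were 1 of 5 neutrophil, 2 of 6 thrombocyte and 1 of 7 endothelium markers. Of 4 erythroid markers 1 was higher and 1 lower. Their part was not tested.

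EC at 4 dpf rest on 1 ordinary library and 1 low-complexity library. In replicate 1 snap25a was at 5.71 FPKM, snap25b at 3.08, cplx1 at 6.31, stxbp1a at 2.76 and vamp2 at 2.78, and in replicate 2 all 5 were listed at 0. In DN cells they were at 420 and 370, 333 and 260, 308 and 374, 249 and 207, and 195 and 255 FPKM. The differences ran from -7.25 ± 0.85 for snap25a to -6.85 ± 0.73 for vamp2. Replicate 1 alone is thus already far under DN cells in each. Lower were 36 of 71 genes and higher 5, beside 34.6% and 3.12% of all genes, so the share of lower members lay less far above the background than at 3 dpf; 47 had an unadjusted p under 0.05. Of the lower genes 22 were neuronal, with a median of -3.33 beside -1.15 over all genes, a value that scaling shifted by -0.23.

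In each gene called higher in EC at 4 dpf the low-complexity library held the larger value. In that library 34 of 35 neuronal and 18 of 24 general genes were at 0. In the ordinary replicate 1 stx11a, stxbp3 and vamp3 also lay clearly above both DN libraries, while vamp8 lay close to them. stx11a was at 24.1 and 126 FPKM against 3.87 and 5.19 in DN cells (3.36 ± 0.74, limma adjusted p = 0.001616). stxbp3, which encodes Munc18c of surface traffic, was at 17.6 and 223 against 5.37 and 5.96 FPKM (3.28 ± 0.79, limma adjusted p = 0.003111), and stxbp5b at 7.60 and 169 against 4.33 and 9.91 (2.33 ± 0.87, limma adjusted p = 0.04203). In stxbp5b replicate 1 lies within the DN range. vamp3 was at 59.7 and 326 FPKM against 31.2 and 25.8 (2.26 ± 0.65, limma adjusted p = 0.00998) and vamp8 at 13.3 and 206 against 12.5 and 10.3 (2.14 ± 0.83, limma adjusted p = 0.04917). Without EC replicate 2 the calls of stxbp5b and vamp8 were lost, as they were without either DN library, by limma-voom and under median-of-ratios scaling. The vamp3 call was lost by limma-voom and without DN replicate 2.

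General genes lower in EC at 4 dpf were stx11b.1, stx11b.2, stx12l, stx5a and stx6, 5 of 24, beside the background of 34.6%; under median-of-ratios scaling 8 general genes were lower. Leaving out 1 library gave 36 to 55 calls in all, the highest without EC replicate 1, which leaves the low-complexity library alone. Neutrophil markers summed to 4064 and 11400 FPKM in EC beside 175 and 144 in DN cells, with 4 of 5 called higher and 1 at 0 in replicate 2. Neuron markers summed to 22.98 and 0, with 13 of 13 called lower. Called lower too were 6 of 6 glia and Schwann cell, 5 of 6 skeletal muscle, 6 of 6 epidermis and 3 of 4 hair cell markers. Of 7 endothelium markers 2 were called higher, and of 6 thrombocyte markers 1 was higher and 1 lower. Their part was not tested.

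Adult kidney marrow held little of the neuronal class in either sort. Its sum was 64.5 and 115 FPKM in kidney HSPCs and 34.0 and 96.6 in kidney DN cells. vamp2 was the leader with most signal there, at 10.4 and 30.6 FPKM in HSPCs and 13.7 and 19.6 in DN cells, and snap25a was at 1.002 and 3.143 and at 0.407 and 0.0499. In these genes the spread between replicates was as large as the distance between the sorts. No member was called between kidney HSPCs and kidney DN cells, beside 2.4% of all genes higher and 5.2% lower; limma gave 6 an unadjusted p under 0.05 and limma-voom called 2. The count was 8 without both low-complexity libraries, 7 higher and 1 lower, 1 without HSPC replicate 1 and 2 without either DN library. Of the synaptic partners 2 were higher in kidney HSPCs, sypa (2.96) and amph (2.39), the vesicle coat adaptor amphiphysin. sypa was at 8.78 and 25.9 FPKM in HSPCs and 0 and 3.32 in DN cells. Neuron markers summed to 15.1 and 62.7 FPKM in HSPCs and 7.44 and 41.6 in DN cells, with 2 of 13 called higher, and their part was not tested.

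Kidney DN cells lay far under 4 dpf DN cells in the neuronal class, a comparison of different tissues and ages. snap25a was at 0.407 and 0.0499 FPKM against 420 and 370 (-8.35 ± 0.85, limma adjusted p = 4.9e-07), and cplx1 at 0 and 2.26 against 308 and 374 (-7.56 ± 0.94, limma adjusted p = 5.6e-06). syt4 was listed at 0 in both kidney libraries against 153 and 127 FPKM (-7.13 ± 0.56, limma adjusted p = 2.2e-08), 923-fold lower at the floor of 3 reads. There was no overlap in these genes. In all 31 of 71 genes were lower and 3 higher, beside 17.2% and 12.5% of all genes; 40 had an unadjusted p under 0.05. Those lower were 20 neuronal, 3 general and 8 unassigned genes.

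The 3 genes higher in kidney DN cells were stxbp4, stx11a and stx1a. stxbp4, whose mammalian form binds syntaxin 4, was at 1.93 and 9.28 FPKM and listed at 0 in both 4 dpf libraries. It was 78.0-fold higher at the floor of 3 reads (2.45 ± 0.49, limma adjusted p = 6.7e-04). Outside the kidney it reached 1 FPKM only in HSPCs at 3 dpf, replicate 2 (1.06 FPKM). It therefore passed the filter only through kidney libraries. stx11a was at 28.47 and 23.19 against 3.87 and 5.19 FPKM (2.28 ± 0.74, limma adjusted p = 0.02556). stx1a, placed in the neuronal class, was at 1.76 and 0.968 FPKM and listed at 0 in both 4 dpf libraries. It was 4.69-fold higher at the floor of 3 reads (1.22 ± 0.35, limma adjusted p = 0.01129). stx1a reached 1 FPKM only in kidney libraries, so it passed the filter only through that tissue. Its reads in the kidney DN libraries were 16 and 6, so its call is weak support. In each of the 3 genes the groups did not overlap. The stx11a call was lost by limma-voom and when any 1 of the 4 libraries was left out, and the stx1a call without either 4 dpf library. All 13 neuron markers were lower in the kidney and neutrophil markers, at 455 and 4933 FPKM, had 2 of 5 called higher. Called lower too were 5 of 6 glia and Schwann cell, 6 of 6 skeletal muscle, 6 of 6 epidermis and 2 of 4 erythroid markers. Higher were 2 of 4 macrophage, 1 of 6 thrombocyte and 1 of 4 hair cell markers. The part of these lists was not tested.

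Across the 13 comparisons between 2 groups syt4 was called in 10 and stx11a in 8, higher in 7 of these. The general genes called in none were 13: stx2a, stx2b, stx4, stx5al, stx8, stx10, stx12, stx16, stx17, stx18, stxbp2, vamp4 and vamp5. They include stxbp2, the Munc18-2 partner of syntaxin 11, which was at 19.2 and 23.8 FPKM in HSPCs, 42.27 and 23.17 in EC and 5.51 and 7.80 in DN cells at 3 dpf. stx4, a surface syntaxin of most cells, was at 28 and 18, 19.9 and 21.1, and 2.89 and 4.25 FPKM in the same groups. In both genes the DN libraries were the lowest without overlap, and neither difference was called. Many of the comparisons share DN libraries, so these counts are not independent of each other.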

How the data were processed

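The starting point was the deposited gene table, whose FPKM values the authors computed. FastQC, HISAT, HTSeq, DESeq2 and GRCz10 are named in the submitters' processing notes, with no version or role given. The table's filter is not stated in the sources used here. For 23718 of 23718 genes above 0 in at least 3 libraries a step was found that made all values whole (within 0.01 reads). That step was taken as 1 read and gave the read numbers. With few values above 0 such a step is found almost whatever the values are. The count is therefore no check on the read numbers of those genes.

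A gene was tested when 2 or more libraries held at least 1 FPKM (21024 genes). Values on the log2(FPKM + 1) scale from all 24 libraries were fitted with 12 group means (limma 3.58.1 under R 4.3.3: functions lmFit, contrasts.fit and eBayes, the last with a trend), with 12 residual degrees of freedom and no covariate. The pseudocount of 1 makes changes of low genes look smaller. p-values are two-sided, with Benjamini-Hochberg adjustment over all genes tested in a comparison. An exact permutation test of 2 libraries against 2 cannot go below p = 0.3333, so none was used.

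The members, classes, marker lists and partner lists were chosen with earlier results of these data known. Per-library values are given for each family's leader and, in each comparison, for up to 5 called members per direction with the largest change. Others were named for their role or after their values were seen. Alternatives were a pseudocount of 0.1, testing without the filter, scaling by median of ratios, a block for replicate number, limma-voom on the recovered reads, and leaving out both low-complexity libraries or each library in turn. A fold against a group at 0 uses a floor of 3 reads per library, which covers counting error only. The fit was tested on simulated data. Python 3.11.15 with numpy 2.4.6 made the tables, and matplotlib 3.10.9 the figures. The values of 1 member are not reported here, but it is part of the counts, medians and sums. Sequences and coordinates were not used here.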

Additional observations from a re-analysis of the deposited data

Results flagged for a closer look

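The HSPC minus DN difference was not the same at 3 dpf as at 36 hpf, by an interaction term in limma: it was more negative at 3 dpf for 26 of 71 genes. The named genes with the largest change of the difference (log2) were cplx1 at -6.7, snap25b at -6.7, cplx2l at -5.67, snap25a at -5.67 and stxbp1a at -5.64. The adjusted p-values of limma stand with them above. The interaction count was 16 at a pseudocount of 0.1 and 18 to 23 with 1 library left out.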

How the results depend on the processing

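Groups of 2 and a shared spread limit every count. Members called moved by over 1.5 times in these cases. With a pseudocount of 0.1 the counts were 0 for HSPC against DN at 36 hpf, 1 for EC against DN at 36 hpf, 5 for HSPC against EC at 3 dpf, 0 for DN 52 against 36 hpf, 1 for DN 3 dpf against 52 hpf, 2 for kidney HSPC against kidney DN and 16 for the interaction. limma-voom gave 0, 1, 14, 0, 0 and 2 for the first 6 of these and 20 for EC against DN at 3 dpf. Median-of-ratios scaling gave 11 for EC against DN at 36 hpf, 2 for DN 52 against 36 hpf and 1 in the kidney. Without both low-complexity libraries the counts were 24 and 20 for HSPC and EC against DN at 36 hpf, 14 for HSPC against EC at 3 dpf, 11 for DN 52 against 36 hpf, 2 for DN 4 against 3 dpf and 8 in the kidney. Leaving out 1 library gave 0 to 1 (HSPC against DN, 36 hpf), 0 (EC against DN, 36 hpf; HSPC against EC, 3 dpf; DN 52 against 36 hpf), 15 to 19 (HSPC 3 dpf against 36 hpf), 12 to 15 (DN 3 dpf against 52 hpf), 0 to 1 (DN 4 against 3 dpf) and 0 to 2 (kidney sorts). The cause was not tested. Of 719 alternative values for the 70 named gene results, 559 kept direction and call, 160 kept direction only and 0 reversed. Deviations of same-numbered libraries correlated at -0.338 to 0.268 over 66 pairs of groups, with 6 over 0.1. The highest value was between the kidney sorts and the lowest between EC and DN cells at 3 dpf. Each group gives only 1 replicate difference, so this cannot settle whether samples of a stage were paired. With the number as a replicate block the counts were 8, 4, 37, 36, 2, 33, 41, 26, 1, 26, 0, 0, 33 and 27, beside 10, 4, 38, 37, 3, 33, 41, 26, 1, 27, 0, 0, 34 and 26 without it.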
